A study of Mus musculus with 2 samples.

Results

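Mir221 and Mir222 are neighbouring miRNA genes on the X chromosome whose main products share a seed, the stretch at bases 2 to 8 of a mature miRNA that pairs with its targets. They were taken by gene symbol, as the 2 rows that GENCODE M21 names Mir221 (ENSMUSG00000065422.1) and Mir222 (ENSMUSG00000065471.1) among 2202 annotated miRNA genes. The libraries are small RNA sequencing of the adrenal gland of male B6CASTF1/J F1 mice aged 14 days, untreated as far as the labels say. There is 1 group of 2 libraries, biological replicates 1 and 2, with no contrast between conditions. The biosample of each replicate names 3 males, both share 1 donor record, and the labels do not say whether animals were pooled. The p-values below measure only the counting error between these libraries. With 2 libraries an exact sign-flip test of a level cannot go below p = 0.5, so none was made.

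A miRNA is cut from an RNA hairpin and guides Argonaute proteins to messenger RNAs that carry a match to its seed, which lowers their translation and stability. The pair is known to be cut from a common primary transcript. It is known in endothelial cells, where it acts on Kit, the receptor for stem cell factor, and in vascular smooth muscle cells, where it acts on the cell cycle inhibitor Cdkn1b. The adrenal gland, with its steroid-making cortex and its medulla of catecholamine-making cells, is densely supplied with capillaries.

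The mature sequences follow because the seed is what the 2 genes have in common and the rest of the arm is where they differ. They come from RefSeq on GRCm38.p6, 5′ to 3′, with bases 2 to 8 in capitals. The table matched both genes and holds 3 mature arms for them.
miR-221-3p: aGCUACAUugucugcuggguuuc
miR-222-3p: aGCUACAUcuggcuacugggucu
miR-221-5p: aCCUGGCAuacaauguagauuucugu
The 3p arms were each 23 bases long and were identical over their first 8 bases. Counted from the 5′ end without gaps, 12 of the 23 positions differed. Every position from 9 to 17 differed, from U9C (miR-221-3p has U, miR-222-3p has C) to G17U, followed by U20G, U22C and C23U. The miR-221-5p arm carries another seed and shares it with no other mature miRNA of the table.

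The hairpins are shown because the deposited counts are per hairpin, so a read of either arm counts for the gene. Annotated mature arms are in capitals.
Mir221 hairpin: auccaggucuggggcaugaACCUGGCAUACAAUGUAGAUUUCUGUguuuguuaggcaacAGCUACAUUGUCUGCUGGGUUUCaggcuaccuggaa
Mir222 hairpin: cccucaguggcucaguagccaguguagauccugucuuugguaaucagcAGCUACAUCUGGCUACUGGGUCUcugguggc
Mir221 lies at chrX:19146294-19146388 and Mir222 at chrX:19146893-19146971 on mm10, both on the minus strand. Their hairpins are 504 bases apart and span 678 bases together, with Mir222 first in the direction of transcription. GENCODE M21 annotates no gene that overlaps either hairpin. The nearest annotated gene, the non-coding transcript Gm14636 on the same strand, begins 10009 bases upstream of Mir222 by its closer end. The longest stretch that the hairpins share is 9 bases, the seed region of the 3p arms.

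**Figure D1:**
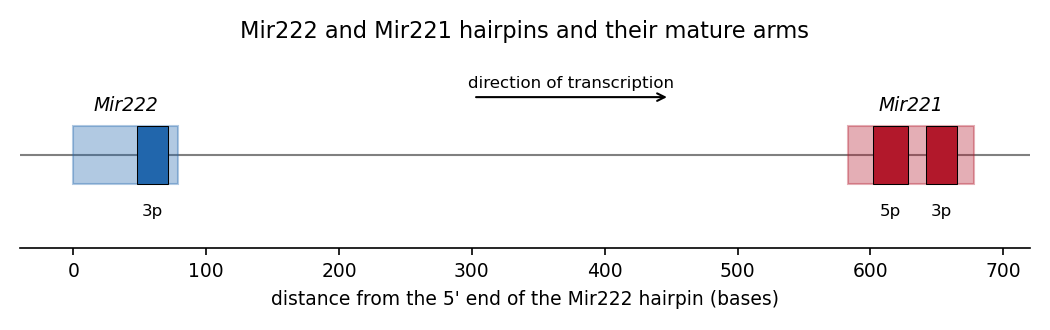
Map of the locus in the direction of transcription, with the distance from the 5′ end of the Mir222 hairpin in bases. Pale boxes are hairpins and dark boxes are the annotated mature arms, and the hairpins are 504 bases apart.

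No 18-base stretch of the 3 mature arms, on either strand, was found in any of the 2201 other miRNA hairpins or in another gene among 141767 annotated transcripts. The genome itself was not searched. The files leave multimapping reads out of every gene, which lowers the counts of hairpins with such copies. Counts on the strand opposite the hairpins were 0 for both genes in both libraries.

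One further mature miRNA of the table carries the same seed. It is printed to show how far its sequence follows miR-221-3p.
miR-1928: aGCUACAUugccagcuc
Mir1928 on chromosome 1 had 0 counts in both libraries. A level of 3 counts, taken as about the upper 95% limit for a count of 0, is 0.992 CPM in replicate 1 and 0.866 CPM in replicate 2. CPM (counts per 1000000) is the count scaled by the sum over all miRNA genes of the library, which was 3024662 in replicate 1 and 3464837 in replicate 2. The counted reads with this seed therefore came from Mir221 and Mir222, apart from any reads of their 5p arms, which the files do not separate.

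Mir221 was the more abundant member in both libraries and was lower in replicate 2, whereas Mir222 was higher there. Mir221 had 1922 counts in replicate 1, or 635 CPM (95% exact Clopper-Pearson interval 607 to 664), and 1088 counts in replicate 2, or 314 CPM (296 to 333). Mir222 had 124 counts in replicate 1, or 41.0 CPM (34.1 to 48.9), and 225 counts in replicate 2, or 64.9 CPM (56.7 to 74.0). The intervals of the libraries did not overlap for either gene. Since reads copied by PCR are not independent molecules, such intervals and limits hold for counting error alone. The means were 475 ± 227 CPM for Mir221 and 53.0 ± 16.9 CPM for Mir222 (SD, n = 2), and 528 ± 210 CPM for their sum. The pair took 0.0676% of miRNA counts in replicate 1 and 0.0379% in replicate 2.

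**Figure D2:**
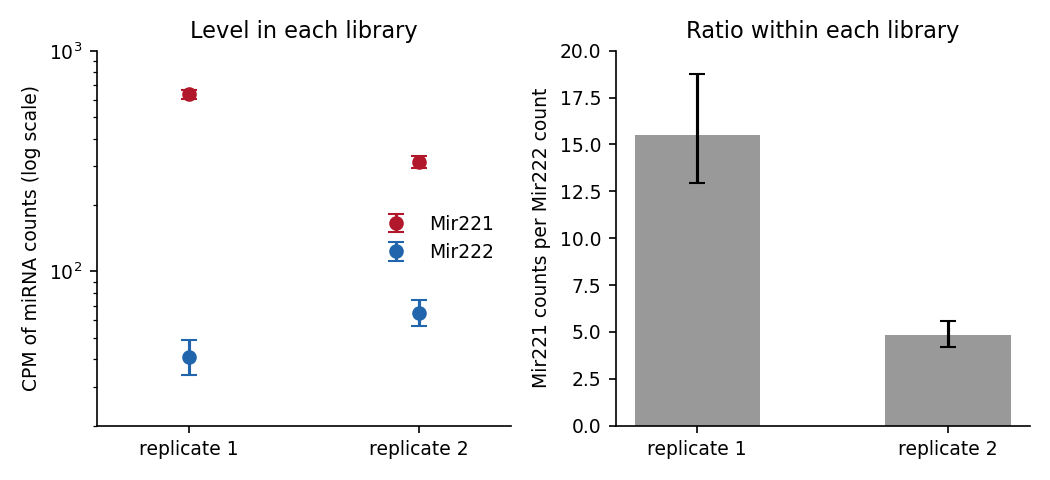
Left, level of Mir221 and Mir222 in CPM on a log axis in each library, with points for the value and bars for the exact 95% counting interval. Right, Mir221 counts per Mir222 count, with bars for the ratio and error bars for its exact 95% interval, at 15.5 in replicate 1 and 4.84 in replicate 2.

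Mir221 was 2.02-fold lower in replicate 2 than in replicate 1 (exact conditional interval 1.88 to 2.18), a log2 ratio of -1.02. Adjusted over 413 genes by the Benjamini-Hochberg method, the exact binomial test gave p = 1.66e-79. Mir222 was 1.58-fold higher in replicate 2 (1.27 to 1.99), a log2 ratio of 0.66 with an adjusted p of 9.48e-05 in the same test. That test compares those libraries, not conditions. It called 229 of the 413 genes, 55.4%, of which 119 (28.8%) were higher and 110 (26.6%) were lower in replicate 2, so a call by itself does not set either gene apart. Counts of either strand gave 74 higher and 139 lower genes, and leaving out Mir126a gave 94 and 136. Leaving out Mir122 tipped the balance the other way, with 138 higher and 95 lower. In that order, these settings moved the median log2 ratio of all genes by -0.17, -0.10 and 0.06. The direction of both members was as given under each scaling tried. In bulk tissue, fewer cells of a type and less RNA per cell cannot be told apart.

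The ratio within a library does not depend on the library total. Mir221 had 15.5 counts for each Mir222 count in replicate 1 (12.9 to 18.7) and 4.84 in replicate 2 (4.19 to 5.61). Mir222 made up 6.06% of the pair in replicate 1 (Clopper-Pearson interval 5.07 to 7.18) and 17.1% in replicate 2 (15.1 to 19.3). The intervals did not overlap. The ratio of Mir222 to Mir221 was 3.21-fold higher in replicate 2 (2.53 to 4.07, two-sided Fisher's exact test p = 4.83e-24). This one test was not adjusted, and it too covers counting error in 2 libraries. Which arm the reads came from, and the lengths and ends of the reads, were not analysed here.

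The size of these differences was set beside that of the genes in a wide band of level that holds each member. The band for Mir221 had no upper bound. Over the 189 genes of 100 CPM or more, the median difference between the libraries was 1.25-fold, whichever the direction. Of these, 27 genes including Mir221 differed at least as far as Mir221, and 13 including it were as low or lower in replicate 2. Over the 110 genes from 10 to 100 CPM the median was 1.36-fold, and 31 genes including Mir222 differed at least as far as Mir222, 17 of them including it being as high or higher. In either band other genes therefore differed as far as the members did, though most differed less.

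**Figure D3:**
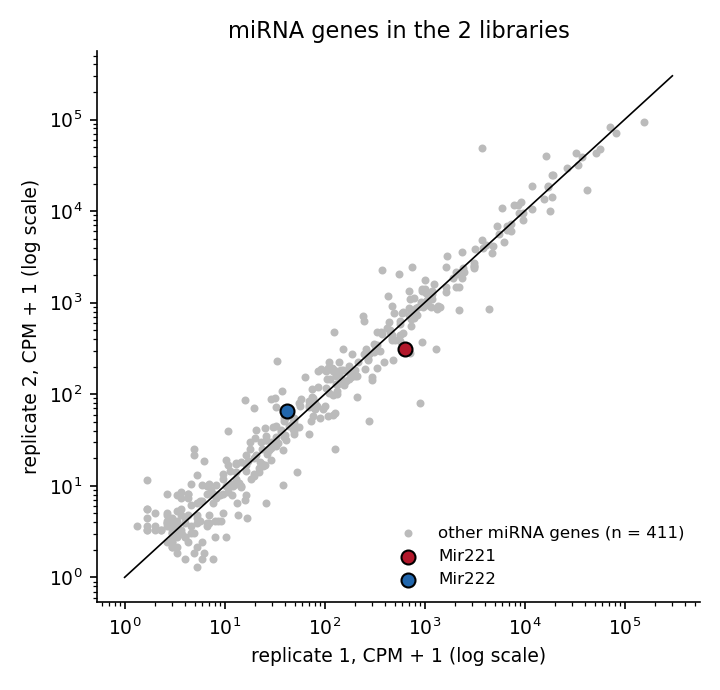
CPM plus 1 of the 413 tested miRNA genes in replicate 1 against replicate 2, both on log axes, with the line of equal level. Mir221 lies below the line and Mir222 above it, both within the cloud of the other genes.

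In the order of levels Mir221 was at place 100 in replicate 1 and 125 in replicate 2, and at 115 by mean CPM. Directly above it by mean stood Mir25, Mir467d and Mir152 at 476 ± 37.3, 476 ± 136 and 475 ± 330 CPM. Below it stood Mir672, Mir130b and Mir671 at 472 ± 73.4, 465 ± 25.1 and 458 ± 19.3 CPM. The ranges of all these neighbours over the libraries overlapped that of Mir221, so their order is not resolved. Mir222 was at place 224 in replicate 1, 211 in replicate 2 and 216 by mean. Mir467c, Mir223 and Mir153 stood above it at 61.0 ± 15.2, 60.3 ± 41.3 and 57.5 ± 41.6 CPM. Mir200c, Mir128-1 and Mir3072 stood below it at 52.6 ± 23.4, 51.2 ± 27.6 and 51.0 ± 7.10 CPM, and all of these ranges overlapped that of Mir222.

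Likeness of pattern was measured as the distance between log2(CPM + 1) values over the 2 libraries. The genes nearest to Mir221 were Mir34a at a distance of 0.13, Mir34c at 0.23 and Mir467d at 0.31. Mir34a and Mir34c, of the p53-linked miR-34 family, were at 613 and 719 CPM in replicate 1 and at 288 and 282 CPM in replicate 2. Mir467d, at 572 and 380 CPM, has 20 bases in a row in common with another miRNA hairpin, and its count may be too low. Nearest to Mir222 were Mir218-2 at 0.26, Mir3072 at 0.26 and Mir345 at 0.29. Mir218-2, at 39.0 and 54.5 CPM, shares a stretch with another hairpin in the same way. Over 2 libraries this measure describes level and 1 difference only.

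Hairpins of a common transcript can be compared with other neighbours. Clusters of exactly 2 miRNA genes on 1 strand, less than 10000 bases apart and with 10 or more counts for each gene in each library, numbered 29. The ratio of the higher to the lower gene changed between the libraries by a median of 1.41-fold over these pairs. Mir221 and Mir222 had the fifth place in the size of that change, and again the fifth among the 14 pairs in which neither hairpin shares a 20-base stretch with another. The members of 11 pairs went in opposite directions, and in 6 of them both genes passed the exact test. These were Mir221/Mir222, Mir34c/Mir34b, Mir30e/Mir30c-1, Mir98/Mirlet7f-2, Mir181d/Mir181c and Mir30d/Mir30b, named after their values were seen. Over all 413 genes tested, 28.8% were called higher and 26.6% lower in replicate 2. How often genes that are not neighbours went in opposite directions was not counted, so the number of such pairs is description only.

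The 4 pairs of summed level nearest to that of Mir221 and Mir222 differed in this respect. Mir181b-2 with Mir181a-2 had a ratio of 60.7 in replicate 1 and 62.0 in replicate 2, but a hairpin of this pair shares 20 bases with another miRNA hairpin, so its ratio rests on counts that may be too low. Mir132 with Mir212, which are induced by activity and hormones, had 15.1 and 16.0. In contrast, Mir34c with Mir34b had 42.6 and 9.59, and Mir130b with Mir301b had 45.1 and 12.6. Mir132 with Mir212 started from nearly the ratio of Mir221 with Mir222 in replicate 1, and the change between the libraries was 0.08 on the log2 scale for the former against -1.68 for the latter.

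**Figure D4:**
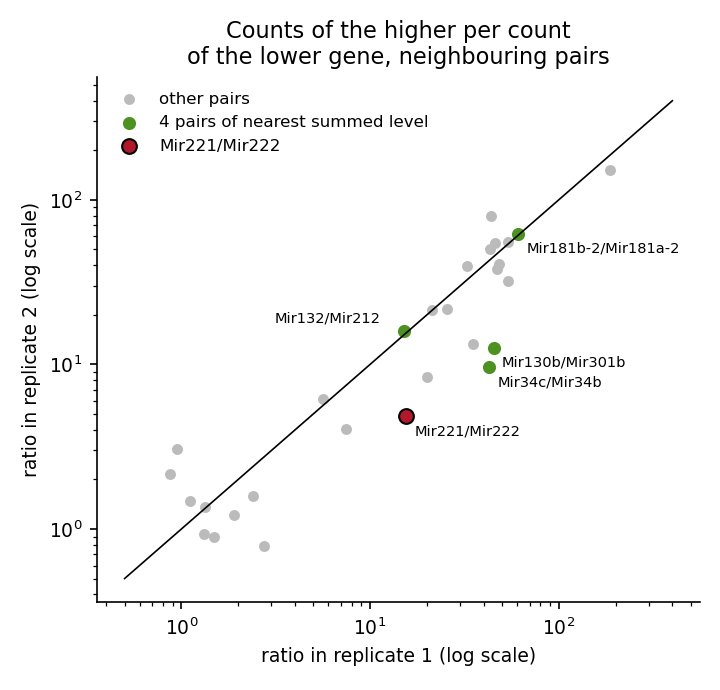
Counts of the higher per count of the lower gene in 29 neighbouring pairs, in replicate 1 against replicate 2, both on log axes, with the line of equal ratio. Mir221/Mir222 lies below the line, at 15.5 and 4.84, while Mir132/Mir212 lies on it, at 15.1 and 16.0.

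Other miRNA genes of vascular cells were more abundant than the pair at the top of their list and did not share 1 direction. Of the 23 measured members of the vascular list, 11 were higher and 8 lower in replicate 2, and 4 did not pass, so 82.6% were called against 55.4% of all genes tested (28.8% higher and 26.6% lower). Their median log2 ratio was 0.30, against 0.03 over all 413 genes tested. The exact test calls smaller differences where counts are high, and no share over genes of matched level was taken. With 50 or more counts required, 210 of 311 genes were called. Mir126a, the miRNA of endothelial cells, was at 155650 CPM in replicate 1 and 94732 in replicate 2, 1.64-fold lower. Mir143 of smooth muscle was at 51310 and 43537 CPM, 1.18-fold lower. Mir10a and Mir23b were 1.03-fold and 1.29-fold higher, and the Mir23b hairpin shares a 20-base stretch with another. Among these genes Mir155, a gene picked once the values were known, was nearest to Mir221 in its ratio, at 483 and 236 CPM and 2.05-fold lower. Mir155 is also among the white blood cell markers summed below.

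Markers of several cell types differed between the libraries beside Mir221 and Mir222. The 2 endothelial markers summed to 15.6% of counts in replicate 1 and 9.47% in replicate 2, the 5 measured white blood cell markers to 0.488% and 0.261%, and the 3 measured red blood cell markers to 4.40% and 1.92%. The 2 smooth muscle markers summed to 5.24% and 4.46%, and the 4 neuroendocrine markers to 3.11% and 3.43%. Mir122, the miRNA of hepatocytes, was at 0.379% and 4.95%. None of the measured markers was at 0 in either library. The sums hide members that went the other way. Endothelial Mir126b and white blood cell Mir223 were 2.99-fold and 2.88-fold higher in replicate 2 while the sums of their lists were lower. Mir126b had only 7 counts in replicate 1 and 24 in replicate 2, and is annotated on the strand opposite the Mir126a hairpin. Mir145a of smooth muscle and Mir144 of red blood cells did not pass. Of the 4 neuroendocrine markers 2 were higher, Mir375 by only 1.11-fold and Mir7b by 1.05-fold, and 2 did not pass. The exact test calls such small differences where counts are high. Over all genes tested, 28.8% were called higher and 26.6% lower. The part of any of these cells in either difference was not tested. The counts hold miRNA genes only, so steroid-making cells could not be checked by their defining messenger RNAs.

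On the X chromosome, which male mice carry in 1 copy, 142 miRNA genes were measured, of which 90 had no count in either library. Mir221 held place 10 and Mir222 place 24 among them by mean CPM. The list was led by Mir322 at 33054 ± 1389 CPM, Mir652 at 8798 ± 1036, Mir98 at 4088 ± 896 and Mirlet7f-2 at 3529 ± 504, the last with a shared stretch. Of 39 members tested, Mir221 and Mir222 included, 12 were higher and 10 lower in replicate 2, and 17 did not pass, with a median log2 ratio of 0.03. The share called was 56.4%, near the 55.4% of all genes.

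Since the pair is known for Kit and Cdkn1b, other miRNA genes described as acting on those 2 targets were listed beside it. Of 14 measured, 6 were higher and 4 lower in replicate 2, and 4 did not pass, so 71.4% were called against 55.4% of all genes (28.8% higher and 26.6% lower). Their median log2 ratio was 0.37, against 0.03 over all genes. As for the vascular list, the shares called were not compared at matched level. Among those described for Kit, Mir34a was 2.13-fold lower. Mir193b, at 335 and 347 CPM, did not pass, with an adjusted p of 0.533 by the exact binomial test. Among those described for Cdkn1b, the related Mir148a and Mir152 were 3.74-fold and 2.93-fold higher. Mir148a was at 548 CPM in replicate 1 and 2047 in replicate 2, so it was below Mir221 in the former and above it in the latter. The summed level of the list was 2687 CPM in replicate 1 and 4387 in replicate 2, against 676 and 379 for Mir221 with Mir222. Without Mir148a and Mir152, left out after their values were seen, the other 12 genes summed to 1897 CPM in replicate 1 and 1632 in replicate 2, lower in replicate 2 as was the sum of the pair. That sum hides members that went either way. Mir193a was 1.95-fold lower, while Mir494 and Mir24-2 were 2.04-fold and 2.07-fold higher. Of these 14 genes, those of the miR-24, miR-181a, miR-196a and miR-218 families share a 20-base stretch with another hairpin, and their counts may be too low.

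**Figure D5:**
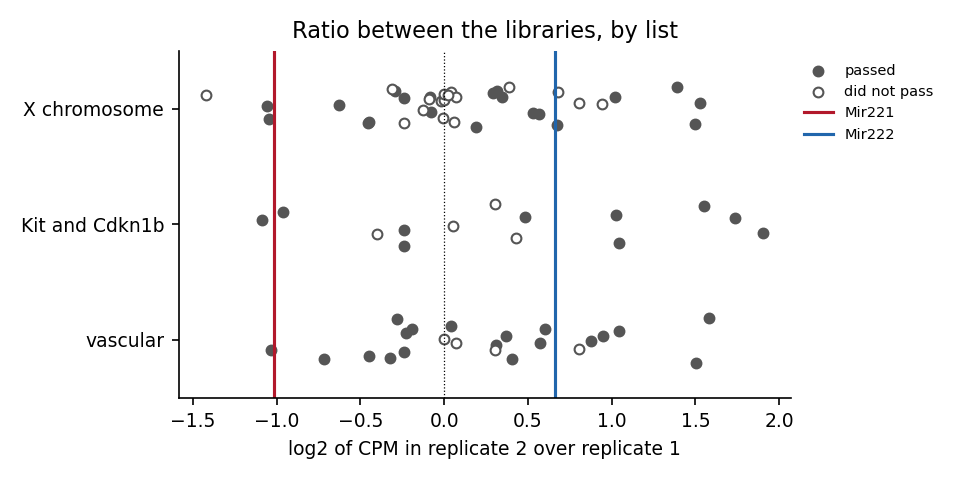
Log2 of CPM in replicate 2 over replicate 1 for the tested genes of the vascular, Kit and Cdkn1b, and X chromosome lists, filled where the gene passed the exact test at an adjusted p of 0.05 and open where it did not. Vertical lines mark Mir221 at -1.02 and Mir222 at 0.66, and each list has genes on both sides of 0.

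Matches to the shared seed in the known targets are shown because they are where Mir221 and Mir222 reads count alike. An 8mer site is ATGTAGCA, the reverse complement of bases 2 to 8 followed by A. A 7mer-m8 site is ATGTAGC without that A, and a 7mer-A1 site is TGTAGCA without the first base of the 8mer. Only the sense strand of the longest annotated 3′ UTR of each gene was searched, in GENCODE M21 on mm10. The capitals mark the match.
Kit, first site: atgggagatatATGTAGCAagactagaaaa
Kit, second site: taaatattgaaATGTAGCAataatgtcttt
Cdkn1b, 8mer site: aaaagcattggATGTAGCAttgcgcaatta
The Kit windows are chr5:75654981-75655010 and chr5:75656512-75656541, and the Cdkn1b window is chr6:134924420-134924449, all on the plus strand.

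Kit held 2 8mer sites in a 3′ UTR of 2177 bases. Of 2764 genes with a 3′ UTR of 0.8 to 1.2 times that length, 5.46% held an 8mer. Cdkn1b held 1 8mer and 2 7mer-A1 sites in 3439 bases, and 8.76% of 1953 genes of like length held an 8mer. Over all 21020 genes with a 3′ UTR, 3.50% held one. Among the genes listed as known targets, 7 held an 8mer. These were Kit, Cdkn1b, the related inhibitor Cdkn1c, the cell death genes Bbc3 and Bmf, the stress gene Ddit4 and the endothelial transcription factor Ets1. Foxo3 and Timp3 held 7mer sites only. A site of any of the 3 kinds was held by 44.1% of genes of like length for Foxo3 and 38.4% for Timp3. For Cdkn1b that share was 37.2%. Seed matches are among the grounds on which such targets are described, so the count is no independent evidence. Of 13 genes known from steroid-making and catecholamine-making adrenal cells, 0 held an 8mer, and Hsd3b1, an enzyme of steroid synthesis, held 1 7mer-A1 site. Most of these have short 3′ UTRs: for Star, with 3096 bases, 7.12% of genes of like length held an 8mer, and for Cyp11a1, with 171 bases, 0.157% did. A match describes letters in a window, not binding, and messenger RNA was not measured in these files.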

How the data were processed

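Small RNA libraries of 2 biological replicates were analysed. The authors deposited raw counts of reads per miRNA gene, 1 table per library, made on mm10 with GENCODE M21 per the notes beside the files. Which aligner and counter were used is not stated there or in the labels. The sense column was used. Summary rows, which name no gene, held 57.8% of reads in replicate 1 and 59.1% in replicate 2, and stayed out of totals and tests. Depth was 7170915 and 8479789 reads. Of these 3024662 and 3464837 were counted in miRNA genes, so 1 count was 0.331 and 0.289 CPM.

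Each gene with 10 or more counts over both libraries was tested by an exact two-sided conditional binomial test with Benjamini-Hochberg adjustment at 0.05. On simulated counts it called 2 of 207 unchanged genes and 40 of 47 with a 2-fold change. Those counts were drawn with counting error alone, as the test itself assumes, so the simulation does not cover spread between animals. Named genes were the members, 3 neighbours above and below each, the 3 nearest in pattern, up to 4 of highest level per list, 4 pairs of nearest summed level and the target list, of which 1 gene is not reported here. Members, lists and tests were chosen with earlier results of these data known. Alternatives were other scalings (edgeR 4.0.16, DESeq2 1.42.0), strands, filters and gene sets. Software was Python 3.11.15, SciPy 1.17.1, statsmodels 0.14.6 and R 4.3.3.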

Additional observations from a re-analysis of the deposited data

Results flagged for a closer look

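No comparison uses the multimapping reads. Their share of the reads was 27.5% for replicate 1 and 29.4% for replicate 2, with no control samples beside them.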

How the results depend on the processing

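Mir221 was lower and Mir222 higher in replicate 2 under all 9 alternatives of scaling, strand, filter and gene set tried, with ratios of replicate 2 to replicate 1 of 0.450 to 0.518 (adjusted p 3.28e-102 to 2.20e-69) and 1.44 to 1.66 (1.33e-05 to 0.00231) by the exact binomial test. The count filters leave these ratios unchanged, and the other alternatives change only the totals that the members are scaled by. The shared direction is therefore not 9 separate results. The number of genes called stayed within 1.5 times of 229. Levels moved by more than 1 SD when scaled to all reads of the file, to 198 for Mir221, 21.9 for Mir222 and 220.1 CPM for the pair, and to 71.3 CPM for Mir222 with counts of either strand, since these totals differ. Counts of either strand are another set of counted reads, in which 387 genes rather than 413 were tested. The place of Mir221 moved to 96 and that of Mir222 to 167 without genes that share a stretch, and that of Mir222 to 198 with counts of either strand, since fewer genes or counts were ranked. Counting adjacent genes of any cluster, an alternative chosen after seeing the data, gave 96 pairs, in which Mir221 with Mir222 had the sixth place. Each library alone gave 314 and 635 CPM for Mir221, 64.9 and 41.0 for Mir222, and a Mir222 to Mir221 ratio of 0.207 and 0.0645. The ratio between libraries cannot be had with 1 left out. No paired analysis was possible because there is 1 group. At 124 counts, Mir222 in replicate 1 had the widest relative interval of the 4 values.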
